A study of Mus musculus with 8 samples.

Results

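The change of the transcriptome from 30 to 60 min of LPS was examined in RAW264.7 cells, a mouse macrophage-like cell line. The library of the culture stimulated for 60 min was set against the library of the culture stimulated for 30 min, which are 2 of the 8 libraries of a time course. Of 23141 genes in the table, 11177 had at least 50 raw counts in at least 1 of the 2 libraries and were compared. At 60 min, 196 of them (1.75%) were at least 2-fold higher than at 30 min and 140 (1.25%) were at least 2-fold lower, while 10841 stayed within 2-fold. Each culture had received 100 ng/ml LPS from E. coli for 0 to 90 min in steps of 15 min or for 120 min, with 1 library per time point. A culture and its time point can therefore not be told apart, and no p-value is given. Intervals, given in parentheses after a ratio of 60 to 30 min, are exact binomial 95% intervals and cover counting error only. "Rose" and "fell" are used for genes that changed at least 2-fold between the 30 and 60 min libraries.

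LPS, a glycolipid of the outer membrane of Gram-negative bacteria, is sensed by TLR4, and its adaptors activate NF-κB and the MAP kinases. Transcription factors and feedback regulators that need no new protein for their induction, such as Fos and Ier2, are known as immediate early genes, and their mRNAs are short-lived. Cytokine and effector genes such as Il1b follow, and many of the encoded mRNAs carry AU-rich elements in the 3′UTR, to which the decay factor ZFP36 (tristetraprolin) binds.

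Sequences of genes on either side of the turnover are given first, since the AU-rich heptamer UAUUUAU is found in genes that rose and in genes that fell. Of the genes that fell, Tnf had 8 heptamers in its 3′UTR, overlapping ones included, Zfp36 had 3, Fos had 2 and Ppp1r15a had 4. Among the genes that rose, Cxcl2 had 7, Il1b had 3, Il1a had 3 and Csf3 had 2. Ier2 and Dusp6, which fell, and Traf1, which rose, had none in the transcript used. The 30 bases with the most heptamers are shown 5′ to 3′ with T for U and the heptamers in capitals, from GENCODE vM21 transcripts on GRCm38.
Tnf 3′UTR, chr17:35199677-35199706, minus strand: TATTTATTATTTATTTATTATTTATTTATt
Zfp36 3′UTR, chr7:28376958-28376987, minus strand: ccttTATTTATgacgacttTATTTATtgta
Fos 3′UTR, chr12:85477102-85477131, plus strand: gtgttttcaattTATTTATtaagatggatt
Ppp1r15a 3′UTR, chr7:45522951-45522980, minus strand: tcctatTATTTATTTATTTATTTATttgaa
Cxcl2 3′UTR, chr5:90905325-90905354, plus strand: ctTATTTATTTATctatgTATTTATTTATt
Il1b 3′UTR, chr2:129364802-129364831, minus strand: cttaccTATTTATTTATgTATTTATtgatt
Csf3 3′UTR, chr11:98702988-98703017, plus strand: gttTATTTATctctatttaaTATTTATgca

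Promoter windows of 60 bases from RefSeq (GRCm38.p6) are shown for genes of both directions, with the motif in capitals. The window of Cxcl2 holds the NF-κB consensus, that of Zfp36 the CArG box, and those of Errfi1, which rose, and of Cbx8, which fell, both hold the cyclic AMP response element TGACGTCA. That of Il1a holds an AP-1 motif, TGANTCA. Matches to the NF-κB consensus also lie upstream of Fosl2, which rose, and of Fos, which fell, and are not shown. The same letters thus occur upstream of a gene that rose and of a gene that fell.
Cxcl2 promoter, chr5:90903777-90903836, plus strand: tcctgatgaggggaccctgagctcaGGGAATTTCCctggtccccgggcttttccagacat
Zfp36 promoter, chr7:28379252-28379311, minus strand: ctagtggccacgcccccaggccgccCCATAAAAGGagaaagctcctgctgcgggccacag
Errfi1 promoter, chr4:150854993-150855052, plus strand: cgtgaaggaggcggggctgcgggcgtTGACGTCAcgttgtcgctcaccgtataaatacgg
Cbx8 promoter, chr11:119040914-119040973, minus strand: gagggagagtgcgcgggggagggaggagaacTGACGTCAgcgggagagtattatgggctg
Il1a promoter, chr2:129309973-129310032, minus strand: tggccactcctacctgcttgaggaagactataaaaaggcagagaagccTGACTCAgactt

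The 30 and 60 min libraries held 139624730 and 134501676 counts. Their share of the 45S ribosomal precursor Rn45s was 8.18% and 8.27%, against 13.0% to 20.5% in the libraries of 15, 45, 75 and 90 min and 8.59% and 9.11% at 0 and 120 min. All 8 macrophage markers were compared and none changed 2-fold, with ratios of 60 to 30 min from 0.822 for Fcgr1 to 1.71 for Cd14, and Lyz2 stood at 426642 and 437726 normalized counts. Of 12 markers of other cell types, only S100a8 reached 50 counts, with 56.5 and 52.5 normalized counts. The labels give the RNA fraction as cytoplasmic and the molecule as total RNA, and the nuclear RNA Malat1 was present at 362628 and 360195 normalized counts. For this time course the paper names total RNA and describes no fractionation, so the levels are not read as cytoplasmic. The 2 spike-in transcripts were 1.40 and 1.27 times as high at 60 as at 30 min after normalization. Scaling to their sum would lower the log2 ratio of every gene by 0.37 and give 106 higher and 388 lower genes. All changes below are relative to the median gene, whose log2 ratio was -0.01.

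**Figure D1:**
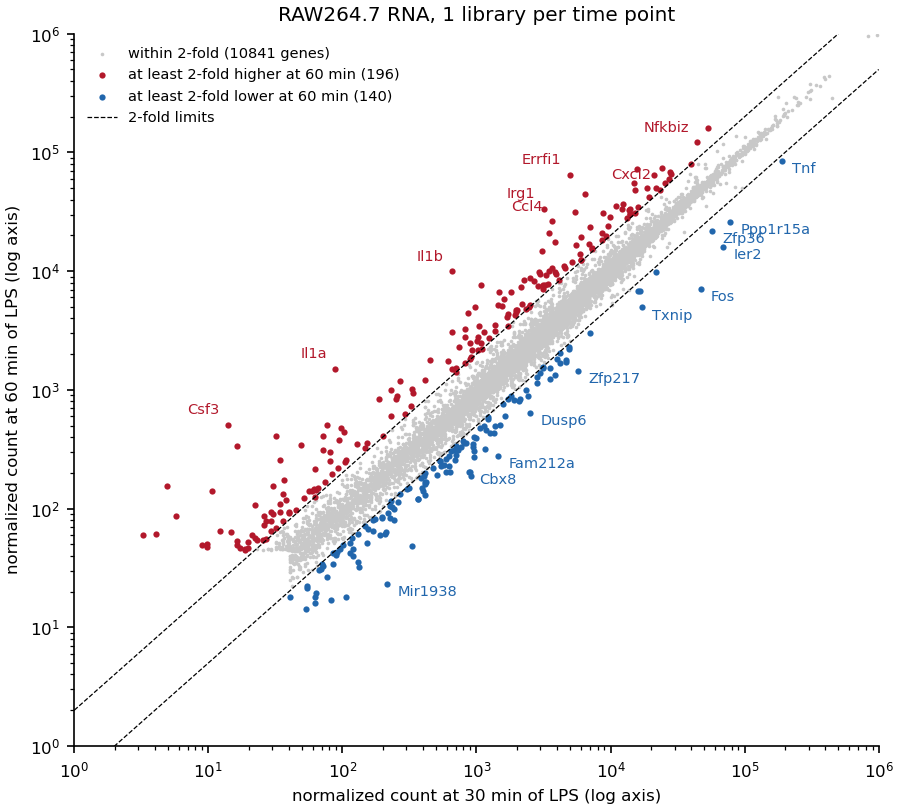
Normalized counts at 30 min (x axis) and 60 min (y axis) of LPS for 11177 genes, both on log axes, with 1 point per gene and dashed lines at 2-fold. The 196 genes above the upper line and the 140 below the lower line lie on both sides at low and high counts, and Tnf has the highest counts of the genes that fell.

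Of 5 interleukin-1 family ligands compared, 3 rose (60.0%) and 0 fell. Of all genes compared 1.75% rose and 1.25% fell, so 0 falls in a list this small, here and below, carry little information. Members low at both times were not compared, while members high only at 60 min were. The shares of rises, here and below, are therefore partly set by the filter. In the following, 8 values in a row are normalized counts at 0 to 90 min in steps of 15 min and then at 120 min. Il1b, the precursor of the fever-inducing cytokine IL-1β, stood at 38.5, 55.2, 654, 1938, 9961, 22044, 45310.5 and 108098, and its ratio of 60 to 30 min was 15.2 (14.2 to 16.4). Il1a, which encodes IL-1α, stood at 4.28, 4.76, 88.4, 462, 1506, 2853, 5737 and 13504, with a ratio of 17.0 (14.0 to 20.9). Both were within 1.5-fold of their unstimulated level at 15 min and were higher at each later time point than at the one before. Il1rn, the antagonist of the IL-1 receptor, rose less, from 1246 to 2749.6, while Il18 (739 and 732) and Il1f9 (103 and 103) stayed within 2-fold.

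Of 9 genes of the CSF, IL-6, IL-10 and IL-12 families, Csf3, Lif, Osm and Il10 rose (44.4%) and 0 fell. These 9 are the members compared out of 17 in the table. Csf3, Lif and Il10 passed the filter of 50 counts only through the 60 min library. Csf3, which encodes the granulocyte colony-stimulating factor G-CSF, had 2.57, 1.90, 13.9, 119.7, 508, 946, 2571 and 9634 normalized counts, and its ratio of 36.5 (22.6 to 63.0) was the largest of the 11177 genes. Lif, a cytokine of the interleukin-6 family, had 3.42, 2.85, 34.4, 73.4, 258, 697, 1709 and 10307, and Osm, its relative oncostatin M, had 353, 402, 825, 2581, 2778, 2118, 2154 and 2603. Lif was highest at 120 min, whereas Osm stayed between 2118 and 2778 from 45 min onward. The anti-inflammatory Il10 went from 9.83 to 47.2 normalized counts, with a ratio of 4.80 (2.53 to 9.87). Ifnb1, interferon-β, rose from 3.28 to 59.7, with the wide interval 6.79 to 68.8, and was the only one of 9 genes of interferon-β and the IRF transcription factors to change 2-fold. Ifnb1 too passed the filter only through the 60 min library. Il6, Csf2 and Nos2 did not reach 50 counts at either time, with 11.6, 4.45 and 7.12 normalized counts at 60 min and 974, 195 and 223 at 120 min.

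Among chemokines, which attract leukocytes, 3 of 8 CC (37.5%) and 2 of 4 CXC genes rose and 0 fell. Ccl4 (MIP-1β) had 1744, 1204, 3629.9, 7845, 26219, 48562, 75266 and 147215 normalized counts, and its neighbour Ccl3 (MIP-1α) had 5889, 4849, 11019, 17198, 35580.5, 68124, 102987 and 190811. The ratio of 60 to 30 min was 7.22 (6.998 to 7.46) for Ccl4 and 3.23 (3.17 to 3.29) for Ccl3, and both were highest at 120 min. The RefSeq spans of these genes overlap, and reads matching transcripts of both had been discarded. Cxcl10, an attractant of T cells, rose from 974 to 5033. Cxcl2, an attractant of neutrophils, had 145, 566, 23208, 62408, 48402, 39878, 72439 and 149203: at 30 min it was already 161 times the level of the unstimulated culture, and its ratio of 60 to 30 min, 2.09 (2.06 to 2.12), lay just past the limit. Cxcl2 was highest within the first hour at 45 min, was lower at 60 and 75 min and was highest of all at 120 min. With total counts as the scale its ratio was 1.99, which is within 2-fold.

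Tnf differed from these cytokines. It encodes tumour necrosis factor and had 8922, 29548, 188926, 270553, 84756, 108231, 196878 and 359742 normalized counts. The ratio of 60 to 30 min was 0.449 (0.445 to 0.452), a 2.23-fold fall, and the level at 120 min was above those at 30 and 45 min. It was the only one of 6 TNF superfamily ligands compared that changed 2-fold. Tnfsf9 (4-1BB ligand), which was also higher at 30 than at 0 min, stood at 3223, 7826 and 9583 at 0, 30 and 60 min.

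**Figure D2:**
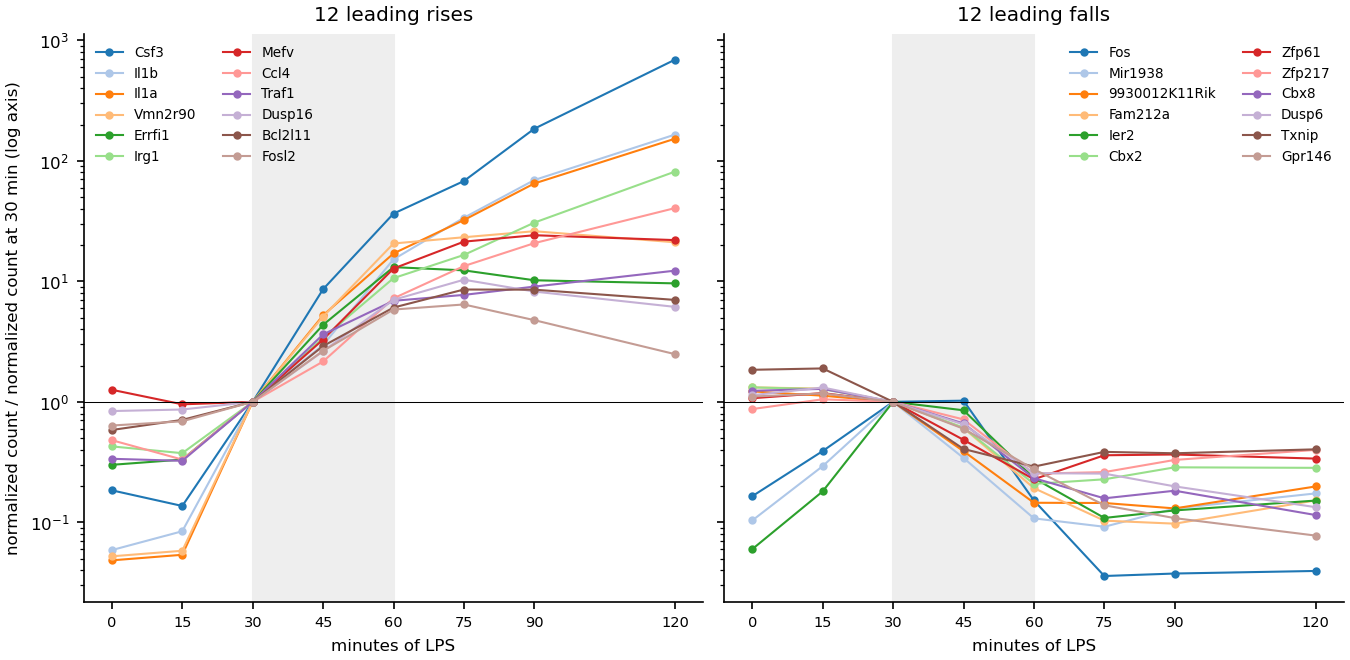
Normalized counts of the 12 leading rises (left) and 12 leading falls (right) as a multiple of each gene's own count at 30 min, on a log axis, against minutes of LPS, with 1 point per library and the compared interval shaded. Csf3, Il1a and Il1b kept climbing to 120 min while Fosl2 turned after 75 min, and on the right Fos, Ier2 and Mir1938 were at least 2-fold above the unstimulated culture at 30 min while the other 9 were not.

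Immediate early transcription factors went both ways. Of 25 compared, 8 rose (32.0%), 4 fell (16.0%) and 13 stayed within 2-fold. Fos, which encodes the AP-1 subunit c-Fos, had 7734, 18321, 46926, 47986, 7127, 1683, 1765 and 1854 normalized counts, and Ier2 had 4153, 12524, 69318, 58972, 16122, 7539, 8703 and 10508. Their ratios of 60 to 30 min were 0.152 (0.148 to 0.155) and 0.233 (0.229 to 0.236), and Fos was below its unstimulated level from 60 min onward while Ier2 stayed above it. The zinc finger factors Klf2 (ratio 0.318) and Klf10 (0.345) also fell, though Klf10 had not risen before, with 4275 at 0 min and 3867 at 30 min.

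Other members of the same family of AP-1 proteins rose while Fos fell. Fosl2 (Fra-2) had 3461, 3751, 5442, 14411, 31742, 34972, 25916 and 13523 normalized counts and a ratio of 5.83 (5.68 to 5.99). Fosl1 (Fra-1) rose from 1435 to 5233, and Fosb stayed within 2-fold with 581 and 1006. Of the Jun genes none passed the limit: Jun had 95941 and 50508 normalized counts (ratio 0.526), Junb 109977 and 123931, and Jund 16926 and 22065. Jun was below its unstimulated level at 120 min, with 2639.6 against 3584. Myc, a regulator of growth (4.72), Maff, a small Maf protein (3.69), Klf6 (2.75), Csrnp1 (2.40), Egr3 (2.26) and Ier5 (2.16) rose.

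Of 5 NF-κB subunits 2 rose (40.0%), of 6 IκB genes 2 rose (33.3%), and 0 of either list fell. Rel (c-Rel) rose from 1373 to 3541 and Relb from 2897 to 7523, and Rela, Nfkb1 and Nfkb2 had ratios of 1.89, 1.28 and 1.68, within 2-fold. Nfkbia, the inhibitor IκBα, had 13858, 23271, 84848, 100494, 50928, 55323, 86703 and 105352 normalized counts, and Tnfaip3, the deubiquitinating enzyme A20, had 1632, 2529, 51274, 112775, 35105, 27772, 52492 and 64961. Both were lower at 60 than at 30 min, with ratios of 0.600 (0.594 to 0.606) and 0.685 (0.676 to 0.693), but stayed within 2-fold. Nfkbiz, the nuclear IκBζ that serves as a cofactor for secondary response genes, rose, with 767, 2836, 44316, 106057, 122090.3, 70448, 60738 and 85679.5 and a ratio of 2.75 (2.73 to 2.78). Nfkbib (IκBβ) rose from 1028 to 2153, and 0 of 8 genes of A20 and its partners changed 2-fold.

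The MAP kinase phosphatases, which switch off the kinases upstream of Fos and Jun, split into a rising and a falling group. Of 11 compared, 4 rose (36.4%) and 3 fell (27.3%). Dusp16, which acts on JNK and p38, had 911, 938, 1087, 2857, 7629, 11204, 8938 and 6666 normalized counts, with a ratio of 7.02 (6.63 to 7.44). Dusp5, a nuclear phosphatase of ERK, rose from 1460 to 6714, Dusp4 from 3876 to 17560.5 and Dusp8 from 72.1 to 412. Dusp6, the cytoplasmic phosphatase of ERK, had 2842, 3294, 2504, 1626, 641, 635, 498 and 335, with a ratio of 0.256 (0.236 to 0.278). It had not been induced before, like Dusp7, which went from 2647 at 0 min and 2355 at 30 min to 1005 at 60 min. Dusp2 was induced first and then fell, with 1047, 2362, 16147, 18919.8, 6792, 7138, 10210.1 and 13740.4. Dusp1 stayed within 2-fold, at 14206 and 20152, with 37986 at 45 min.

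The factors that act on AU-rich and stem-loop elements of mRNAs went in different directions as well, with 2 of 10 higher and 1 lower. Zfp36 had 3172, 9992, 56639, 84456, 21936, 11301, 13667 and 15868 normalized counts, and its ratio of 0.387 (0.382 to 0.393) was a 2.58-fold fall, after which it remained above the unstimulated level. Its relative Zfp36l2 missed the limit by little, at 10329 and 5189 (ratio 0.502), and Zfp36l1 stood at 1680.3 and 1599. Of the Regnase family, which cleaves stem-loops in cytokine mRNAs, Zc3h12c rose from 9980 to 28751 and Zc3h12a (Regnase-1) from 1977 to 4523. Arid5a, an RNA-binding protein that stabilizes Il6 mRNA and that was no member of the list, rose from 871 to 4414 and was back at 1159.8 at 120 min.

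Genes of enzymes, survival and growth arrest were also among the rises. Irg1 (Acod1), which makes itaconate, had 1349.9, 1186, 3162, 10732, 33591, 52348, 97102 and 257578 normalized counts and a ratio of 10.6 (10.3 to 11.0), and 5 of 8 inflammatory enzymes and effectors rose (62.5%), among them also Ptgs2 (cyclooxygenase-2, 2.27), Ptges (4.35) and Saa3 (2.64). Errfi1 (Mig-6), a feedback inhibitor of the EGF receptor, had 1486, 1643, 4952, 21562, 64932, 61046, 50523 and 47609, with a ratio of 13.1 (12.8 to 13.5), and was highest at 60 min. Mefv (pyrin), an inflammasome sensor, rose from 31.9 to 408. Of 12 genes of survival and death 4 rose (33.3%): the adaptor Traf1 (6.89), the caspase-8 inhibitor Cflar (3.65) and the ubiquitin ligase Birc3 (2.14), and also the pro-apoptotic Bcl2l11 (Bim), which had 2036, 2469, 3487, 10122, 21124, 29811, 29729 and 24436. Of 12 growth arrest and stress genes 7 rose (58.3%), among them Gadd45a (4.92), Plk2 (4.78) and Trib1 (3.75). Trib1 was highest at 60 min, with 8412, and stood at 1845 at 120 min, against 1208 in the unstimulated culture.

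Of 19 surface receptors and costimulatory molecules 6 rose (31.6%), namely Cd40, Cd69, Cd83, Icam1, Icosl and Ccrl2, with ratios between 2.02 and 3.18. Of 19 TLR receptors, adaptors and kinases only the adaptor Ticam1 (TRIF) rose (5.26%), from 816 to 3280.2. Tlr4 itself stood at 7189 and 5204. Of 7 SOCS genes Socs1 (2.17) and Cish rose (28.6%), the latter from 5.73 to 87.3 normalized counts, and Socs3 stayed within 2-fold (ratio 1.45). Of 15 interferon-stimulated genes 5 rose (33.3%), namely Isg15 (3.68), Oasl1 (3.29), Rsad2 (2.998), Ifit1 (2.40) and Ifih1 (2.04), and the median log2 ratio of the list was 0.14. Id3 was the only one of 7 Id and TGF-β feedback genes that rose (14.3%), from 8613 to 21086, while Id1 (0.556) and Id2 (0.525) lay below 1. Srxn1 (2.19) and Zfand2a (2.42) were the 2 of 8 heat shock and oxidative stress genes that rose. None of 76 cytoplasmic ribosomal protein genes, 57 histone genes, 49 small nucleolar RNAs or 3 nuclear RNAs changed 2-fold, with median log2 ratios of 0.05, 0.11, 0.28 and 0.23. Of all genes compared 1.75% rose and 1.25% fell, so 0 calls in lists of this size carry little information. With the spike-in scale all list medians are 0.37 lower, which turns those of the interferon-stimulated genes and of these 4 lists negative. The medians of the Id and TGF-β feedback list (0.33 to -0.04) and of the TLR list (0.02 to -0.35) turn negative as well. So do those of the IκB list (0.12 to -0.25), the A20 list (0.01 to -0.36) and the macrophage markers (0.05 to -0.32).

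**Figure D3:**
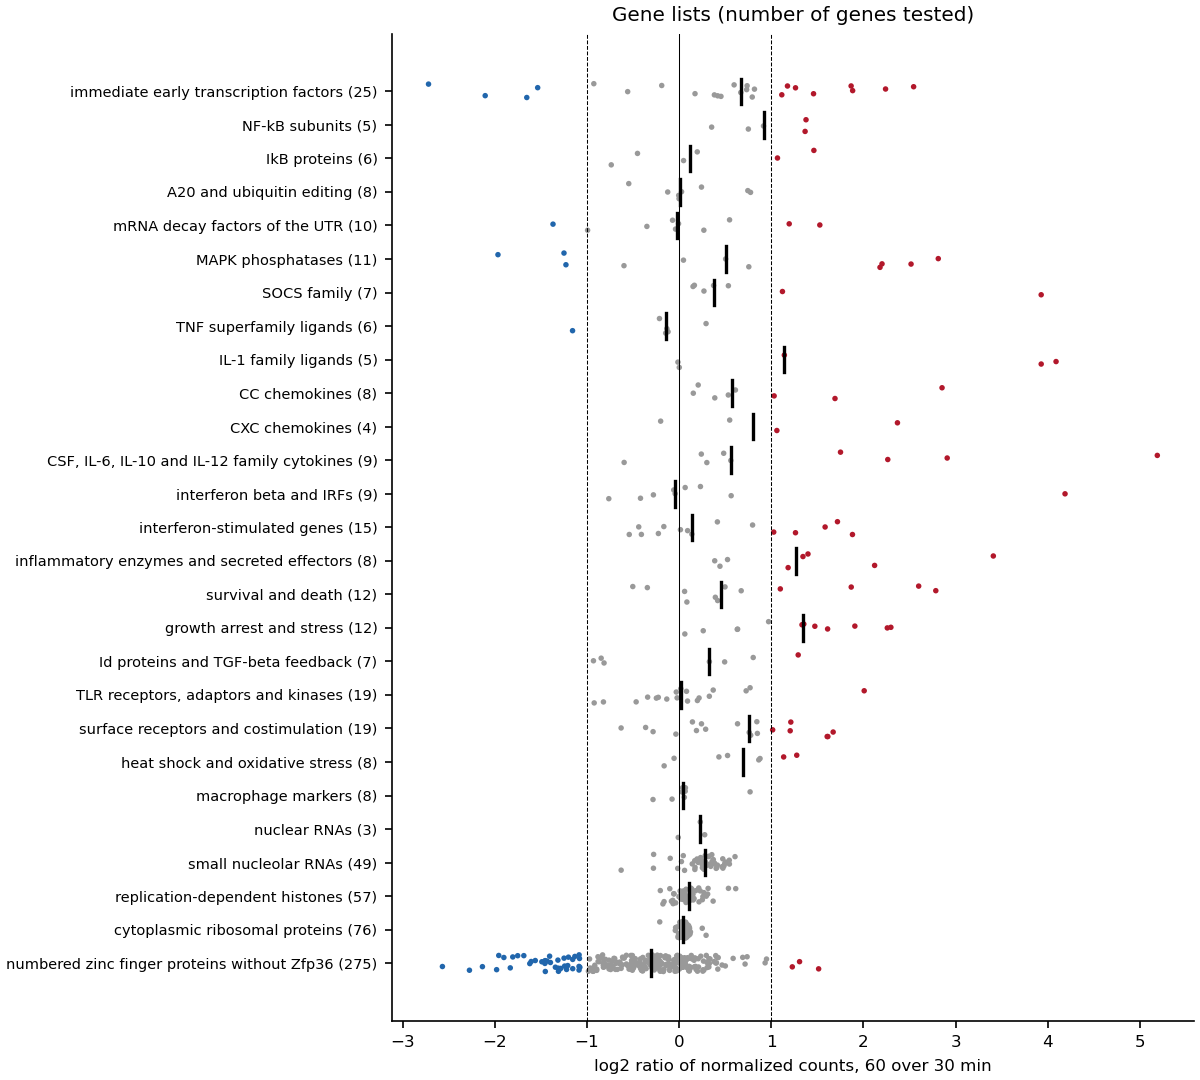
Log2 ratio of normalized counts of 60 over 30 min for the genes of each list, with 1 point per gene, a black bar at the list's median and dashed lines at 2-fold (red at least 2-fold higher, blue at least 2-fold lower). Immediate early factors and MAP kinase phosphatases lie on both sides, the genes of the cytokine lists that changed 2-fold to the right except for Tnf, and the numbered zinc finger genes mostly to the left of 0, while the spike-in scale would shift all points by 0.37 to the left.

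Most genes that fell were not 2-fold above the unstimulated culture at 45 min. By then 126 of the 140 lay between their 30 and 60 min levels, so 45 min alone can miss an earlier induction. At 15 min 7 of 138 were at least 2-fold above the unstimulated culture, all of them among the 10 genes named below. The highest time point was 15 min for 79 of the 140 (56.4%, against 14.5% of all genes), at a median of 1.095 times the 0 min level over the 140. Of 138 genes that fell and had at least 50 counts at 0 or 45 min, 10 were at least 2-fold above the unstimulated culture at 45 min, a library that takes no part in the comparison: Fos, Ier2, Tnf, Zfp36, Dusp2, Klf2, Ppp1r15a, Pnma1, Mir1938 and 4931406H21Rik. Ppp1r15a (GADD34), which directs the phosphatase that reverses the block of translation under stress, had 1631, 7219, 78029.8, 78091, 26096, 8503, 10383 and 16380.1 normalized counts and a ratio of 0.334 (0.330 to 0.339). The 10 genes had a median of 31536 normalized counts at 30 min and of 6959 at 60 min. The row of the microRNA gene Mir1938 went from 215 to 23.1, and its hairpin lies inside the span of Ifrd1, which rose from 25626 to 55593. Reads matching transcripts of both genes had been discarded. Whether counting used strand is not stated, so other reads from the span of Ifrd1 may be counted for Mir1938.

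The other 128 of these were not 2-fold above the unstimulated culture at 45 min, and 2 more of the 140 had too few counts to be compared. Txnip, which inhibits thioredoxin and glucose uptake, had 31539, 32373, 17099.9, 6949, 4959.5, 6572, 6399 and 6899 normalized counts and a ratio of 0.290 (0.282 to 0.299), and was already lower at 30 than at 15 min. Of the chromobox proteins of Polycomb complexes, Cbx2 had 1198, 1159.9, 909.7, 555, 189.7, 207, 260.3 and 258 and Cbx8 had 1088, 1128, 881, 583, 205, 139, 161 and 101. Both were below their 30 min level at 45 min and at every later time point. Fam212a (Inka1), an inhibitor of the kinase PAK4, fell from 1445 to 278, the orphan receptor Gpr146 from 1148 to 317, and the uncharacterized 9930012K11Rik from 331 to 48.1. Bmf, a pro-apoptotic relative of Bim, fell from 1349 to 432 while Bim rose.

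Numbered zinc finger genes made up 40 of the 140. This list holds every gene named Zfp and a number except Zfp36, and most of its members encode C2H2 zinc finger proteins that bind DNA. Of 275 compared, 40 fell (14.5%, against 1.25% of all genes) and 3 rose (1.09%, against 1.75%), and the median log2 ratio was -0.31. Of all 275, 208 had a ratio below 1 (75.6%), against 52.3% of all genes compared. Among the 251 with at least 200 counts in 1 of the 2 libraries, 30 fell (11.95%, against 1.07% of all genes with that many counts). Zfp217 had 4979, 6000.5, 5716, 4083, 1449, 1493, 1884 and 2281 normalized counts, Zfp61 had 963, 1063, 899, 435, 205, 324, 329 and 304 and Zfp763 had 903, 879, 964, 516, 271, 463, 587 and 362. All were near their unstimulated level at 30 min, lowest at 60 min and higher again at 90 min. Over the 40 genes that fell, the median level was 0.994 of the unstimulated culture at 30 min and 0.366 at 60 min. It was 0.599 at 90 min and 0.4935 at 120 min. For the other 90 genes it was 0.935, 0.406, 0.293 and 0.318 at these times. Both groups were chosen by a low count at 60 min, so a low there with higher values later is partly built in. Over all 275 the median was 0.840 at 60 min and 0.949 at 90 min. The Rn45s share was 8.27% at 60 min and 15.8% at 90 min, and its part was not tested.

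Members of 1 zinc finger cluster moved apart. Of 74 numbered zinc finger genes compared on chromosome 7, 16 fell (21.6%), and on chromosome 17 it was 6 of 34 (17.6%). The share was 14.5% over all 275 such genes and 1.25% over all genes compared. On other chromosomes it ranged from 0 of 3 on chromosome 1 to 1 of 3 on chromosome 14. With 2 of 10 on chromosome 11 and 3 of 17 on chromosome 6, the falls were not particular to chromosomes 7 and 17. Within chr7:29768552-30107622, from Zfp84 to Zfp260, 13 such genes were compared, of which Zfp30 (0.207), Zfp74 (0.370), Zfp14 (0.169), Zfp82 (0.311) and Zfp566 (0.403) fell and Zfp420 (2.86) and Zfp568 (2.34) rose (this stretch was chosen after the values were seen). Zfp14 and Zfp30 rest on few reads, with 17.8 and 16.9 normalized counts at 60 min. Reads shared by near-identical zinc finger genes had been discarded, so their levels are uncertain. The third gene that rose, Zfp263, went from 6851 to 16947.

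**Figure D4:**
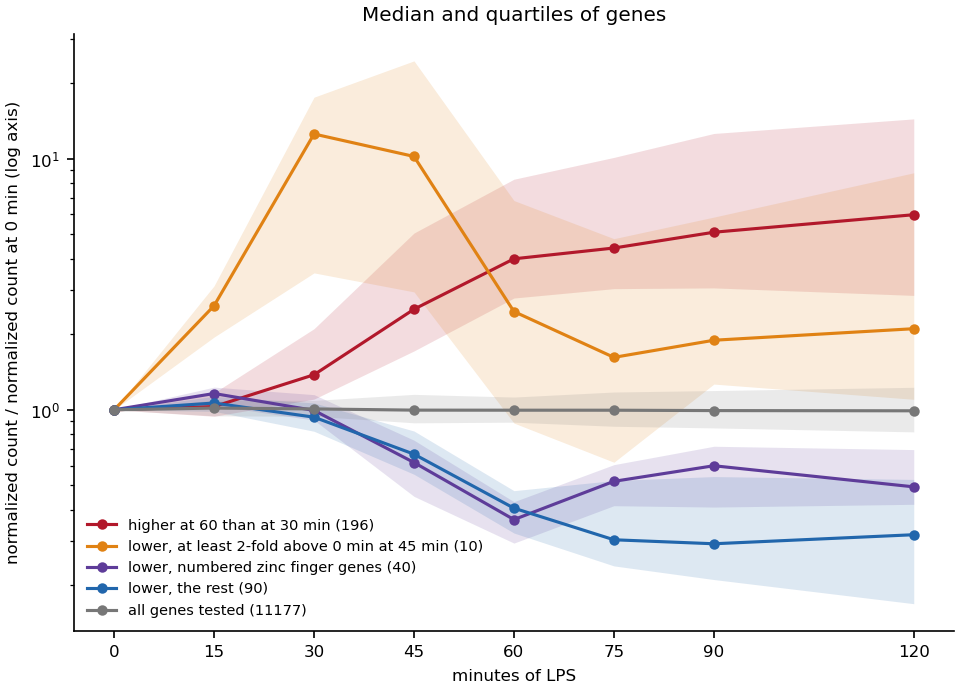
Median (line) and the range from the lower to the upper quartile (band) of normalized counts relative to 0 min, on a log axis, against minutes of LPS, with counts under 1 set to 1, for genes that rose, 3 groups of genes that fell and all genes compared. The 10 induced genes stood at a median of 12.5 times the unstimulated level at 30 min and 2.46 at 60 min, the zinc finger genes were lowest at 60 min, and the other 90 stayed low to 120 min. All 3 groups were chosen by their fall from 30 to 60 min.

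Time points that share no library with the comparison were examined next. They were 15 against 0, 45 against 0 and 120 against 75 min, and the 2 libraries of each pair stand apart in their Rn45s share (13.0% against 8.59%, 16.6% against 8.59%, and 9.11% against 20.5%), whose part in the counts was not tested. At 15 min against 0 min, 24 of 11089 genes were at least 2-fold higher (0.216%) and 13 lower (0.117%). Of the genes that later rose, 3 of 150 were higher and 1 was lower. Of those that later fell, 7 of 138 were higher (Dusp2, Fos, Ier2, Mir1938, Ppp1r15a, Tnf and Zfp36) and 0 lower. At 45 min against 0 min, 2.4% of all genes were higher and 0.945% lower. Of the genes that rose, 110 of 169 (65.1%) were higher and 1 was lower, and of those that fell, 10 of 138 were higher and 25 (18.1%) lower. From 75 to 120 min, 1.61% of all genes rose and 1.01% fell 2-fold, with 39 of 187 (20.9%) of the earlier rises higher and 8 lower, and 3 of 117 of the earlier falls higher and 6 lower. The 3 were Tnf, Zfp296 and F630028O10Rik.

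The level at 45 min lay between those at 30 and 60 min for 183 of the 196 genes that rose (93.4%) and for 126 of the 140 that fell (90.0%), against 39.8% of all genes compared. A 2-fold gap between 30 and 60 min, by which the genes were chosen, itself widens the range in which the 45 min value can lie. Of the genes that fell, 12, Tnf and Zfp36 among them, were higher at 45 min than at either time. The highest time point was 120 min for 101 of the rises (51.5%, against 26.4% of all genes), and the lowest was 120 min for 36 of the falls (25.7%, against 28.2%). Further steps of the course are given side by side. Those from 0 to 30 and from 60 to 90 min share a library with the comparison, and that from 90 to 120 min does not. From 0 to 30 min 1.03% of genes were higher and 0.117% lower, from 60 to 90 min 1.1% and 1.03%, and from 90 to 120 min 0.738% and 0.27%.

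Genes of either direction had fewer exons in the median than all genes compared. Among 10607 genes with a matched GENCODE vM21 transcript, the median was 9 exons, against 6 for 186 genes that rose, 4 for 133 that fell and 3 for the 8 matched induced genes that fell. The median gene spanned 21322 bases, against 13761 for rises, 12246 for falls and 2626 for the induced falls, and the transcript lengths were 2998, 2873, 3148 and 1978 bases in the same order. The median 3′UTR had 1027, 1073, 1319 and 746 bases. The heptamer UAUUUAU occurred in 28.4% of all 3′UTRs, in 42.5% of rises and in 40.6% of falls. In 6 of the 8 induced falls (75.0%) it was present, at 3.63 per kb of 3′UTR, against 0.549 per kb in rises, 0.448 in all falls, 0.339 in the falls that were neither induced nor zinc finger genes and 0.290 in all genes. Of the induced falls, Tnf alone holds 8 heptamers, and Ppp1r15a holds 4 in a 3′UTR of 76 bases. These are descriptions of the annotated transcripts and were not tested.

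**Figure D5:**
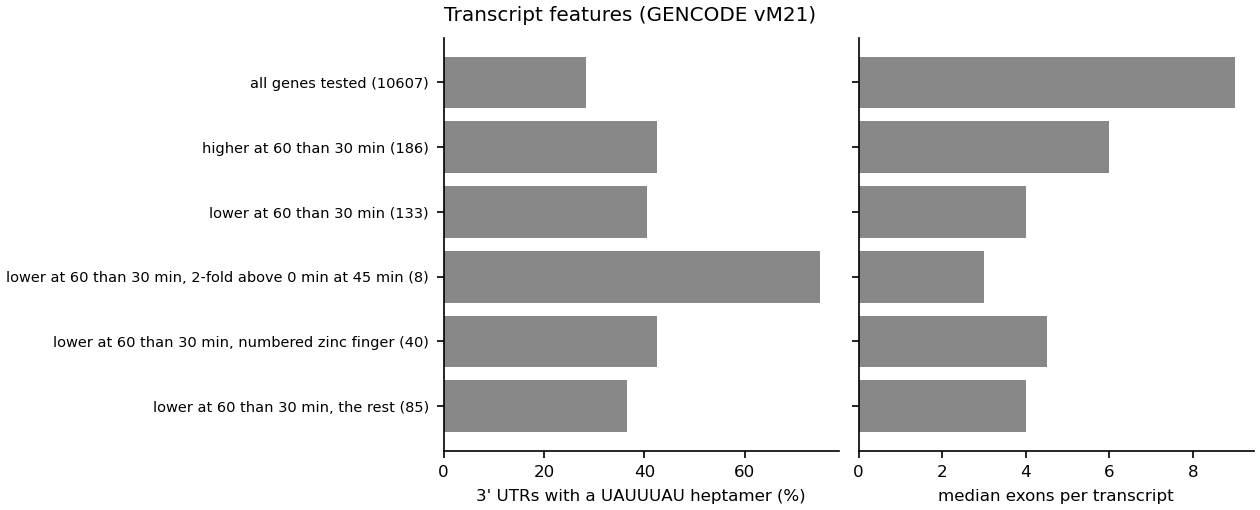
Share of 3′UTRs with a UAUUUAU heptamer in percent (left) and median number of exons (right) by group, with the number of genes in parentheses, as bars from 0 with no error, since each is a count over the group. The 8 induced falls have the highest share (75.0%) and the fewest exons (3).

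The promoter motifs shown above were counted on both strands in the 250 bases upstream of the start. The NF-κB consensus was found for 10.1% of 149 genes that rose and 5.56% of 108 genes that fell. It was found for 5.36% of 8322 genes compared and 4.46% of all 27025 genes with a promoter. The AP-1 motif TGANTCA was found in 10.7%, 1.85%, 5.26% and 7.82%, the element TGACGTCA in 6.71%, 3.70%, 3.27% and 1.77%, and the CArG box in 2.69%, 1.85%, 1.20% and 1.62%, each in that order. A NF-κB site can match on both strands, and each motif was counted once per gene over all promoters listed for it. Such a match is a string of letters and not a measured binding site.

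Genes just inside the limits were Spred3 (2.0031) and Rab40c (0.496), and just outside it Slc25a33 (1.9985) and Zbtb3 (0.501). With an interval wholly beyond 2-fold, 142 of the 196 rises and 83 of the 140 falls remained, and the intervals of the others reached below 2-fold. Vmn2r90, a vomeronasal receptor gene that was among the leading rises, had 0.855, 0.952, 16.4, 83.6, 337, 380.2, 427 and 345 normalized counts, and no other annotated gene overlaps its span. Of the leading genes, Il1b, Il1a, Csf3, Errfi1, Irg1, Traf1, Dusp16, Bcl2l11, Cbx2, Dusp6, Txnip, Gpr146 and Zfp61 have spans that overlap another annotated gene. Reads matching transcripts of both had been discarded where both were in the RefSeq set used for counting. Where the other gene was not in it, its reads may be counted for the leading gene if strand was not used.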

How the data were processed

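RNA from RAW264.7 cultures treated with 100 ng/ml LPS had been depleted of ribosomal RNA with Ribo-Zero and sequenced by the authors from a directional kit, with 1 library for each of 8 time points. The authors used Bowtie and allowed 2 mismatches against RefSeq transcripts (mm10 build), and deposited raw counts per gene symbol, discarding reads that match more than 1 gene. The versions of CASAVA (1.8.2) and DESeq (1.10.1) are given in the submitters' processing notes, and that of Bowtie is not given in the sources used here. Whether counting used strand is not stated either. Total counts ranged from 100250892 to 159077286 per library, and 3 counts, the number that a count of 0 allows, set the floor of each library. The spike-in transcripts, BGIVT and FLIVT, carried 0.0256% and 0.0316% of counts at 30 and 60 min and were left out of the gene rows.

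Size factors (median of ratios over the 8 libraries) were computed from the counts, 1.22 at 30 min and 1.12 at 60 min, with Python 3.11.15, pandas 2.3.3 and scipy 1.17.1. Genes with at least 50 raw counts at 30 or 60 min were compared as a ratio of normalized counts, a count of 0 being taken as 3, with the exact conditional binomial interval. The step was tested on simulated counts. Named were the 12 largest rises and 12 largest falls by the interval bound nearest to 1 among genes with a mean of at least 100 normalized counts, the markers Il1b, Cxcl2, Zfp36 and Tnf, and members of gene lists with the largest changes or that define the list. The members and lists were chosen with earlier results of these data known. Promoters and gene positions came from RefSeq (GRCm38.p6), and UTRs and exons from GENCODE vM21. Alternatives used other scalings, filters and fold limits, edgeR 4.0.16 and DESeq2 1.42.0 under R 4.3.3.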

Additional observations from a re-analysis of the deposited data

How the results depend on the processing

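The numbers of genes at least 2-fold higher and lower at 60 than at 30 min were 196 and 140. They kept within 1.5 times of these under TMM, total counts with and without Rn45s, size factors from the 30 and 60 min libraries alone, at least 200 counts, genes with an mRNA accession and removal of the length trend, where the latter 2 were chosen after seeing the data. A minimum of 10 counts gave 363 and 221, and a minimum of 1 count 1189 and 933, by construction from genes with few reads. A 1.5-fold limit gave 411 and 443, and a 3-fold limit 80 and 33. Intervals wholly beyond 2-fold left 142 and 83. Tests of the 2 libraries with the dispersion over all 8 libraries compare these libraries and not the time points. The limits were p under 0.05 and an absolute log2 ratio over 0.5. The exact test of edgeR gave 216 and 122. A Wald test computed outside DESeq2, from the dispersion and size factors that DESeq2 fitted, gave 301 and 275. Scaling to the spike-in transcripts, added after seeing the data, gave 106 and 388 (21.5% higher among those called, against 58.3%), and the cause was not tested. None of 162 alternative values of the named genes' ratios changed direction. This could not have come out otherwise and says nothing about robustness. These genes all changed at least 2-fold, and the largest rescaling shifts a log2 ratio by 0.37. Of the 162 values, 46 left the counting interval, of which 22 under the spike-in scale. No paired analysis was possible because each time point has 1 library. Among the leading genes, Csf3, Vmn2r90 and Mir1938 rest on few reads in 1 of the 2 libraries and have intervals more than 2-fold wide, as do other genes near 50 counts, and the spread between cultures is unknown.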
